A study of Mus musculus with 4 samples.

Results

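Androgen-response genes were followed in the seminal vesicles of 4 Nkx3.1 +/+ (wild-type) C57Bl/6J mice aged 15 months, with 1 Affymetrix Mu74AV2 array of total RNA per mouse. The genes were chosen by name: all probe sets whose platform annotation gave 1 of 9 symbols, namely Fkbp4, Fkbp5, Srd5a1, Srd5a2, Hsd17b4, Ncoa4, Pmepa1, Ndrg1 and Camkk2. Of these, 5 were annotated on the array, by 8 of its 12422 probe sets that are not controls: Fkbp4, Ncoa4 and Ndrg1 by 2 each, and Fkbp5 and Hsd17b4 by 1 each. The other 4 (Srd5a1, Srd5a2, Pmepa1 and Camkk2) and the receptor gene itself were not analysed here, so the data speak of chaperones, an enzyme, a coactivator and a response gene, not of the receptor. The samples formed a single group with no treated, castrated or mutant animals, so no response to androgen was measured. Tissue was whole gland, snap frozen, and its litter or hybridisation batch is not given in the labels.

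The seminal vesicle grows and secretes under the control of testicular androgen. In such target tissues the steroid reductases encoded by Srd5a1 and Srd5a2 turn testosterone into dihydrotestosterone. The androgen receptor waits for its ligand in a complex with Hsp90 and the immunophilins encoded by Fkbp4 and Fkbp5, then enters the nucleus, recruits coactivators and switches on its target genes. Its response elements are inverted repeats of the hexamer AGAACA. Several of the genes named here, among them Fkbp5, Ndrg1, Pmepa1 and Camkk2, are known as androgen-induced mainly from human prostate cells.

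The 2 members with clear signal were the immunophilin genes Fkbp4 and Fkbp5, so their promoters are shown, beside that of Ncoa4, which stayed under the background limit described below. Each runs from 250 bases before to 50 bases after the start of the RefSeq gene (build GRCm38.p6), written 5′ to 3′ on the gene's strand. Capitals mark matches to the androgen hexamer AGAACA or its reverse TGTTCT, to the heat shock pair GAANNTTC and to the hypoxia core ACGTG or its reverse CACGT.
Fkbp4, chr6:128438607-128438906, minus strand: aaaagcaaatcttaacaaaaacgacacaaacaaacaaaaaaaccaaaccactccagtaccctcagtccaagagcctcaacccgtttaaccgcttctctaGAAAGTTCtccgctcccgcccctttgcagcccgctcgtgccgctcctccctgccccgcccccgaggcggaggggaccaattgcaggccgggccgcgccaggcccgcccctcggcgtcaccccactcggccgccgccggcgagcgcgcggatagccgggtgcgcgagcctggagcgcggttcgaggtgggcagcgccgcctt
Fkbp5, chr17:28486100-28486399, minus strand: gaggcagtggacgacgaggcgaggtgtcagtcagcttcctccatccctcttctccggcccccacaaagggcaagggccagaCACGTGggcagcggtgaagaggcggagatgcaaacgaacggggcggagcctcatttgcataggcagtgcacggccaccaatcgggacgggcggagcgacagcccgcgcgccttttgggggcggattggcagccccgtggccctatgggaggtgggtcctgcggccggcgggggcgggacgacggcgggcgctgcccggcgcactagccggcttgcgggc
Ncoa4, chr14:32159637-32159936, plus strand: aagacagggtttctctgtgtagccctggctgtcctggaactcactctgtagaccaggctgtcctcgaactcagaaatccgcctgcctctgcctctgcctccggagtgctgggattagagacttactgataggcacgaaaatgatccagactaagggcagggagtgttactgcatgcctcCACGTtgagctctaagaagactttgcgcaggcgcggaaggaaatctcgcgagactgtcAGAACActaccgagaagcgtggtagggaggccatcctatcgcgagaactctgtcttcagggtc
The full element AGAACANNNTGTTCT, which reads the same on both strands, was found in none of the promoters listed for these 3 genes, and in 3 of 32851 promoters of the table (0.00913%). The hexamer was absent from the Fkbp4 and Fkbp5 windows and began 13 bases before the Ncoa4 start shown. The other Ncoa4 windows, which overlap, held its reverse, 8 bases before the start in the first and 211 and 6 bases before in the second. A match stood in 19% of all promoters, each counted as a single window, whereas Ncoa4 had 3 windows searched. The Fkbp4 window held 1 heat shock pair, GAAAGTTC, beginning 151 bases before the start, a motif found in 7.86% of promoters. In the Fkbp5 window the 2 hypoxia cores overlapped in the palindrome that begins 169 bases before the start, and the Ncoa4 window shown held 1, with 19.6% of all promoters holding at least 1. Fkbp4, Fkbp5 and Ncoa4 were matched by symbol to the promoter table, and Ndrg1 was not. Ncoa4 had 3 start sites, of which the furthest upstream is printed. The promoter of Hsd17b4 was not searched. The matches describe letters only.

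The expression values are on a log2 scale, 1 per probe set, so a difference of 1 unit is a doubling. They depend on each probe set's own probes and are therefore compared between mice and not between genes. To say whether a probe set gave signal, a background limit was set on each array at the 90th percentile of the 108 probe sets that read 89 genes typical of other organs, such as liver, pancreas, brain and eye. The limits were 6.19, 6.07, 6.10 and 6.24 in mice 1 to 4. Tissue labels were checked in the same way. The seminal vesicle genes Svs2, Svs4 and Svs5 had means of 12.53, 12.99 and 13.09, above the limit. The luminal keratin gene Krt8 had 8.50, and Krt18, Krt19 and Cdh1 had 8.17, 8.08 and 6.60, also above it. Epcam, another luminal marker, lay under the limit at 4.23, and 0 of 10 epididymis and testis genes passed it. Of 6 measured prostate genes 2 passed on all 4 arrays, and Pbsn, the probasin gene, passed in mouse 1 alone, with values given further on. Array medians lay between 4.95 and 4.98, and Pearson's r for pairs of arrays, computed across probe sets and so not over independent replicates, was 0.992 to 0.994.

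Fkbp4 and Fkbp5 were above the background limit in every mouse, and the other 3 measured genes were not. In all, 3 of 8 member probe sets (37.5%) exceeded the limit on all 4 arrays, against 23.1% of all probe sets, and 2 of 5 genes did so by at least 1 probe set, against 28.3% of 8251 genes. With so few members, that share is not a result about the group.

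**Figure D1:**
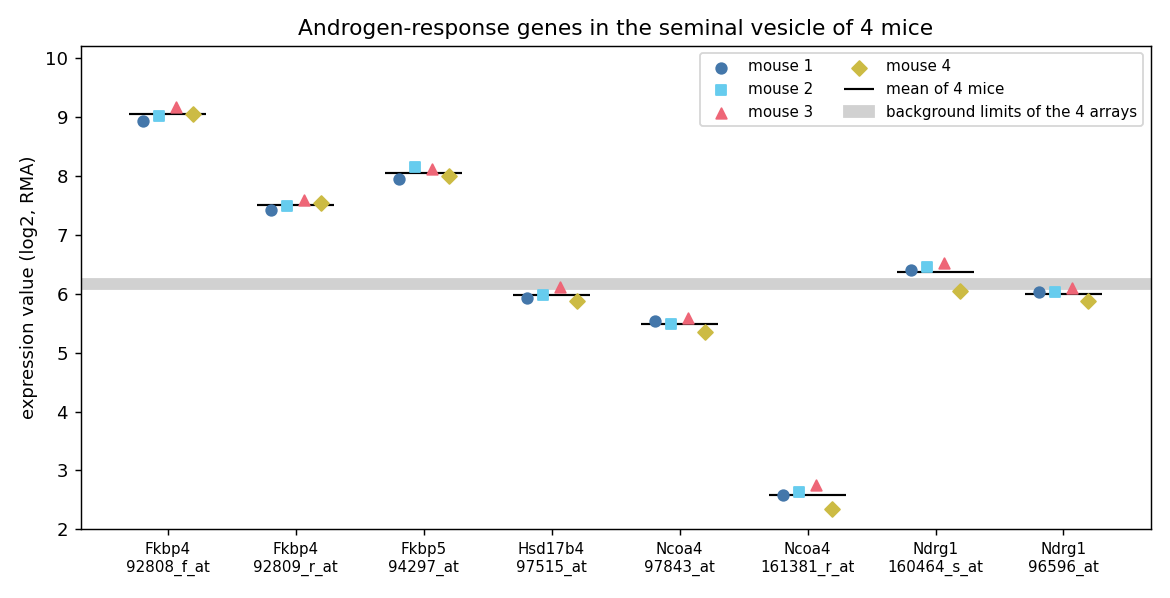
Expression value (log2, RMA) of the 8 probe sets of the androgen-response genes, with 1 symbol per mouse, a bar at the 4-mouse mean and a grey band spanning the background limits of the 4 arrays (6.07 to 6.24). Both Fkbp4 probe sets and that of Fkbp5 lie above the band in every mouse, Hsd17b4 and Ndrg1 lie close to it, and Ncoa4 lies below.

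Fkbp4 encodes the immunophilin that promotes the activity of the hormone-bound receptor, and mice without it have malformed male reproductive organs. Its brighter probe set, 92808_f_at, had 8.93, 9.02, 9.17 and 9.04 in mice 1 to 4, with a mean of 9.04 ± 0.10 (SD, n = 4). The other, 92809_r_at, had 7.41, 7.49, 7.59 and 7.53, a mean of 7.50 ± 0.07 (SD, n = 4). Both probe sets put the mice in the same order, mouse 3 highest, then mouse 4, mouse 2 and mouse 1. The values exceeded the arrays' limits by 2.75 to 3.07 for the brighter probe set and by 1.22 to 1.49 for the other. By Affymetrix naming the suffixes f and r mark probe sets picked under relaxed rules on uniqueness, so a share of reads from related transcripts cannot be told apart from Fkbp4.

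Fkbp5 encodes the related immunophilin that binds the same Hsp90 complexes and is induced by androgens and by glucocorticoids. Its single probe set, 94297_at, had 7.95, 8.14, 8.11 and 8.0 in mice 1 to 4, a mean of 8.05 ± 0.09 (SD, n = 4). It lay 1.76 to 2.06 above the arrays' limits. The highest mouse exceeded the lowest by 1.14-fold, which is within the general spread of the arrays (adjusted p = 0.995, limma's variance model).

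Hsd17b4 encodes the peroxisomal multifunctional enzyme that acts in beta-oxidation of very long and branched fatty acids and can oxidise oestradiol. Its probe set, 97515_at, had 5.93, 5.98, 6.12 and 5.87 in mice 1 to 4, a mean of 5.98 ± 0.11 (SD, n = 4). It passed the limit in mouse 3 alone, and there by 0.02. In mouse 4 it lay 0.37 under the limit, so it cannot be placed on either side of background with confidence.

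Ncoa4 encodes a coactivator first described for the androgen receptor, which also carries ferritin to autophagy. Probe set 97843_at had 5.53, 5.49, 5.58 and 5.35 in mice 1 to 4, a mean of 5.49 ± 0.10 (SD, n = 4), and stayed 0.51 to 0.89 under the limits. The second, 161381_r_at, had 2.58, 2.64, 2.75 and 2.35, a mean of 2.58 ± 0.17 (SD, n = 4). Both peaked in mouse 3 and were lowest in mouse 4, although the second is among the dim probe sets of the array. A value under the limit is no evidence that Ncoa4 was silent, since probe sets differ in sensitivity.

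Ndrg1 encodes a cytoplasmic protein of the N-myc downstream-regulated family that is induced by hypoxia, by differentiation and, in human prostate cells, by androgen. Probe set 160464_s_at had 6.40, 6.45, 6.52 and 6.05 in mice 1 to 4, a mean of 6.36 ± 0.21 (SD, n = 4). It passed the limit in mice 1 to 3 by 0.21 to 0.43 and lay 0.19 under it in mouse 4. Probe set 96596_at had 6.02, 6.03, 6.09 and 5.88, a mean of 6.00 ± 0.09 (SD, n = 4), and passed on no array. Both gave the order mouse 3, mouse 2, mouse 1, mouse 4, but mouse 4 lay below the mean of the other mice by different amounts, with differences of -0.41 and -0.17.

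The design holds no contrast, so the comparison among samples was the spread between the 4 mice. The variance of each probe set was set against the prior variance that limma fits to all 12422 probe sets, with p-values adjusted over all of them. Of the 8 member probe sets 0 were called variable at an adjusted p of 0.05, where 0.282% of all probe sets were, and 0 had an unadjusted p under 0.05, where 5.44% did. Their adjusted p-values lay between 0.977 and 0.998 (limma), and their SDs between 0.07 and 0.21, with a median of 0.10 against 0.11 over all probe sets. Among the 3 probe sets above the background limit, the highest mouse exceeded the lowest by 1.18-fold and 1.13-fold for Fkbp4 and by 1.14-fold for Fkbp5. The other 5 had at least 1 value under the limit, and no fold is given for them.

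Ndrg1 by 160464_s_at and Ncoa4 by 161381_r_at had the widest spread among the members. The Ndrg1 SD was 1.70 times the prior SD for its signal (adjusted p = 0.977, limma), and it stood at the 87.9th percentile of the probe sets in its decile of mean signal. Its range of 0.47 was reached or exceeded by 10.3% of all probe sets. Without mouse 4 the Ndrg1 SD was 0.06, and without mouse 1, 2 or 3 it was 0.25, 0.25 and 0.22. Leaving out the mouse furthest from the mean lowers an SD in any case, and whether mouse 4 stood apart was not tested this way. The Ncoa4 SD was 1.69 times the prior SD (adjusted p = 0.981, limma). For Fkbp4, Fkbp5, Hsd17b4 and the other probe sets of Ncoa4 and Ndrg1 the SD was 0.58 to 0.85 times the prior SD. A p that misses the threshold does not show that the mice were alike in these genes.

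**Figure D2:**
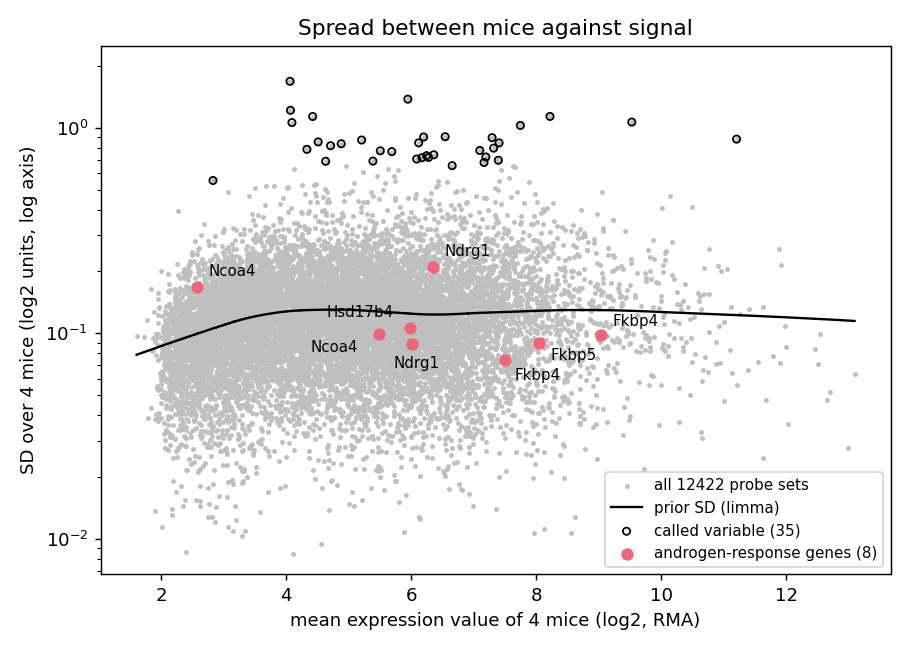
SD over the 4 mice (log2 units, log axis) against the mean expression value for all 12422 probe sets (grey), with the prior SD fitted by limma (line), the 35 probe sets called variable (open circles) and the 8 probe sets of the androgen-response genes (red). The red points lie within the grey cloud and below every called probe set, with Ndrg1 and Ncoa4 (1 probe set each) above the line.

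Mouse 3 was highest in 7 of 8 probe sets, where it was highest in 26.1% of all probe sets, and the exception, Fkbp5, was highest in mouse 2 (with arrays quantile normalized again, it too was highest in mouse 3). Mouse 4 was lowest in 5 of 8, where it was lowest in 20.3% of all. These 5 belonged to Hsd17b4, Ncoa4 and Ndrg1 and were also highest in mouse 3, a pair of ranks held by 7.39% of all probe sets. None of these 5 exceeded the background limit on all 4 arrays, and the 3 that did, of Fkbp4 and Fkbp5, were lowest in mouse 1, where 20.7% of all were. Probe sets annotated to 1 gene are meant to read that gene, though the suffix r, also borne by Ncoa4 161381_r_at, marks relaxed uniqueness. The counts therefore rest on 5 genes, of which 4 had their highest values in mouse 3 and 3 their lowest in mouse 4. Mouse 3 exceeded mouse 4 by 0.06 to 0.47, and the mean deviation of the members, 1 probe set per gene, was -0.03, 0.03, 0.12 and -0.12 in mice 1 to 4. The order was noticed in these data, no member passed the variance test, and the order itself was not tested.

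**Figure D3:**
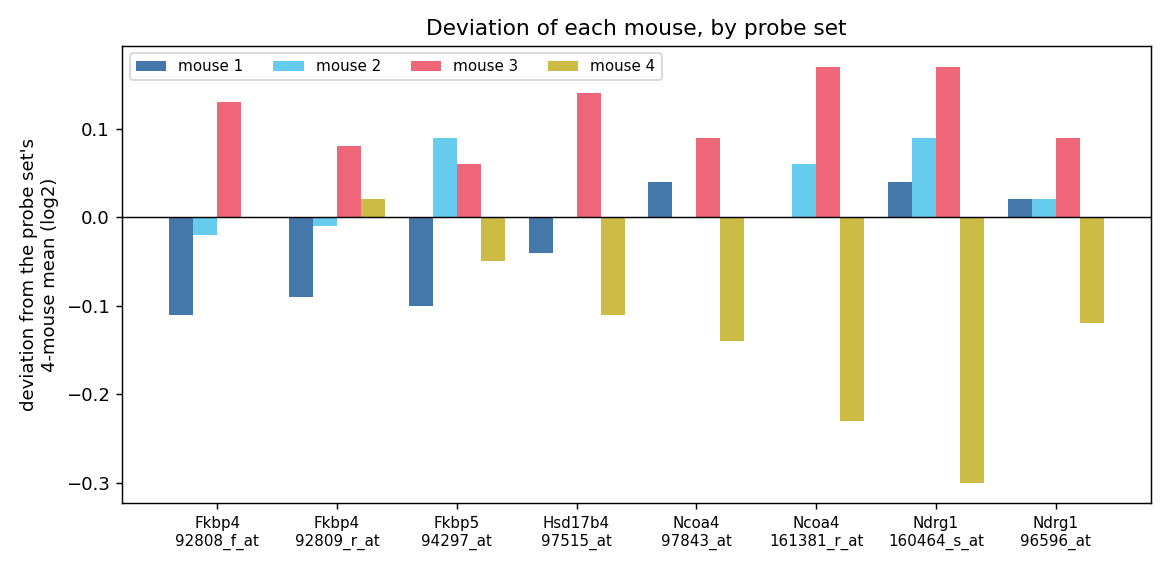
Deviation of each mouse from the 4-mouse mean (log2) for the 8 probe sets. Mouse 3 is highest except in Fkbp5, and mouse 4 is lowest in Hsd17b4, Ncoa4 and Ndrg1, most of all in Ndrg1 160464_s_at at -0.30.

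Among the marker lists, macrophage and seminal vesicle secretion genes on average also had mouse 3 highest and mouse 4 lowest. The 12 measured macrophage genes of 14 listed averaged 5.61, 5.68, 5.76 and 5.45 in mice 1 to 4, with mean deviations of -0.01, 0.05, 0.13 and -0.17, and 3 of 12 passed the background limit. Its defining markers Cd68, Adgre1 and Csf1r had means of 4.83, 4.88 and 5.39, under the limit. By these probe sets Adgre1 had both ranks, while Cd68 was highest in mouse 2 and Csf1r was lowest in mouse 1. Dimmer probe sets of Cd68 and Adgre1 were highest in mouse 4. The B and plasma cell genes, 7 measured of 9, averaged 6.62, 7.01, 6.95 and 6.20, also lowest in mouse 4. The 11 seminal vesicle secretion genes deviated by -0.03, 0.02, 0.05 and -0.05. The 13 smooth muscle genes were highest in mouse 1 instead, at 0.27, -0.17, -0.01 and -0.10, and the luminal epithelium genes in mouse 2, at -0.03, 0.11, -0.07 and 0.00. By number of genes above the limit the lists had 9 of 11 for secretion, 11 of 13 for smooth muscle, 7 of 15 for luminal and 1 of 8 for basal epithelium, 9 of 16 for fibroblasts, 2 of 9 for endothelium, 1 of 7 for adipocytes, 3 of 7 for the B lineage, 2 of 6 for prostate and 8 of 89 for the other organs themselves. Genes called variable stood in the B and plasma cell list (3) and the prostate list (1). When the test was run on probe sets over the mean background limit alone, 0 of them were called by limma, and 170 had an unadjusted p under 0.05. The beta-actin 3' minus 5' control was 1.08, 0.82, 1.02 and 0.98, and that of Gapdh -0.12, -0.15, -0.15 and -0.13. The part of any of these in the order of Hsd17b4, Ncoa4 and Ndrg1 was not tested, and in whole tissue fewer cells of a type and less RNA per cell cannot be told apart.

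**Figure D4:**
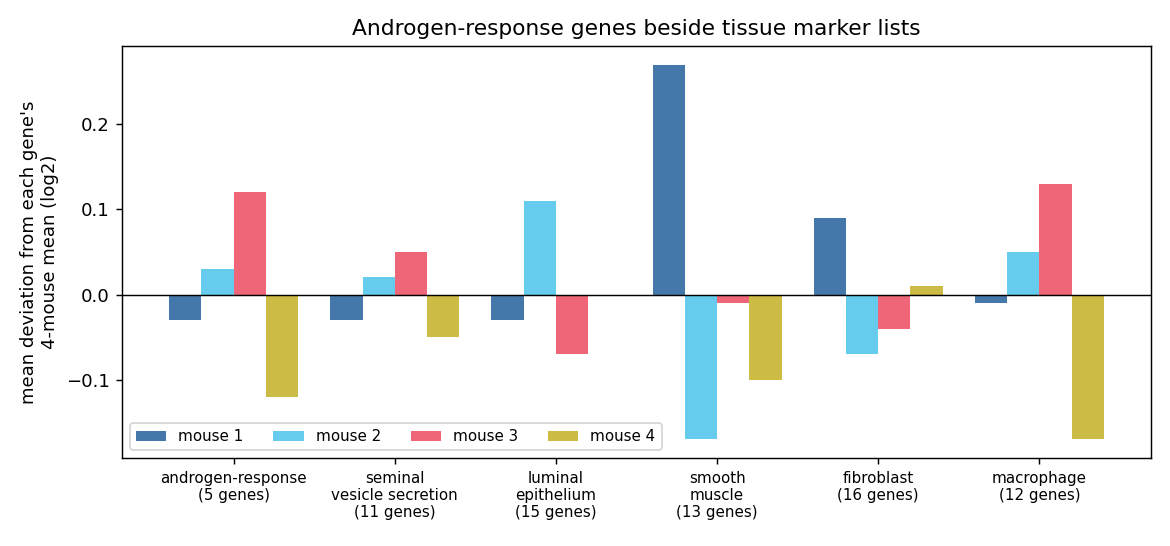
Mean deviation (log2) of each mouse from a gene's average over the 4 mice, for the 5 androgen-response genes (brightest probe set each) and the measured genes of 5 tissue marker lists. On average androgen-response, macrophage and seminal vesicle secretion genes peak in mouse 3 and are lowest in mouse 4. Smooth muscle genes are highest in mouse 1.

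Around the immunophilins, 15 of 20 listed genes of the steroid receptor chaperone machinery were measured, 11 of them above the background limit and 0 called variable, with 1 at an unadjusted p under 0.05 (limma) and a median SD of 0.11. That one was Hsp90aa1, the inducible cytosolic Hsp90 gene, with 8.46, 9.06, 8.90 and 8.51 in the 4 mice, its SD being 0.29 (adjusted p = 0.801, limma). Like Fkbp4 and Fkbp5 it was lowest in mouse 1. Stip1, the adaptor between Hsp70 and Hsp90, had a mean of 4.19 and was below the limit. Hsp90ab1 and Ptges3, also on the list, were not analysed here.

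Fkbp5 responds to both hormones and is 1 of 16 glucocorticoid-responsive genes listed, the receptor gene among them. All 16 were measured and 9 were above the limit, with 0 called and 5 at an unadjusted p under 0.05 (limma), and a median SD of 0.16. The list deviated on average by -0.05, -0.04, 0.13 and -0.05 in mice 1 to 4. Of the 5, Ddit4, Mt1 and Mt2 were above the limit and highest in mouse 3, at 8.56, 8.17 and 7.97. Zbtb16 and Cebpd were under the limit and highest in mouse 2. Sgk1, a kinase gene induced by glucocorticoids, had 10.17, 10.39, 9.85 and 9.90 in mice 1 to 4 and was lowest in mouse 3. Tsc22d3, the glucocorticoid-induced leucine zipper gene, had 5.84, 6.12, 5.95 and 6.15, and the receptor gene Nr3c1 had 2.59, 2.75, 2.92 and 2.81, neither above the limit.

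Of the steroid metabolism list, 19 of 28 genes were measured, 3 above the limit, 0 called and 0 at an unadjusted p under 0.05 (limma), with a median SD of 0.11. Hsd17b3, the testicular enzyme that makes testosterone, had a mean of 3.07 ± 0.02 and Hsd17b2, which inactivates it, 3.27 ± 0.10 (SD, n = 4 each), both far under the limit. Of the peroxisomal list that holds Hsd17b4, 15 of 21 genes were measured, 5 above the limit, 0 called and 2 at an unadjusted p under 0.05 (limma), with a median SD of 0.12. Those were Scp2, a peroxisomal thiolase and sterol carrier gene, with 7.53, 8.09, 7.94 and 7.53, and the thiolase gene Acaa1a, with 5.77, 6.70, 6.12 and 6.40 (adjusted p = 0.802 and 0.35, limma). A second Scp2 probe set above the limit, 95787_s_at, had 7.14, 7.30, 7.27 and 7.12, with an SD of 0.09 (adjusted p = 0.995, limma). Both genes were highest in mouse 2, whereas Hsd17b4 was highest in mouse 3. Amacr, the racemase of branched fatty acids, had a mean of 4.41.

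For Ncoa4, 24 of 31 receptor coregulator genes were measured, 9 above the limit, 0 called and 3 at an unadjusted p under 0.05 (limma), with a median SD of 0.12. The steroid receptor coactivator genes Ncoa1 and Ncoa3, which are not relatives of Ncoa4 in sequence despite the name, had means of 5.04 ± 0.12 and 3.89 ± 0.14 (SD, n = 4 each), under the limit like Ncoa4. In the ferritin and autophagy list 15 of 17 genes were measured, 9 above, 0 called and 0 at an unadjusted p under 0.05 (limma), with a median SD of 0.13. Fth1, the ferritin heavy chain gene that Ncoa4 protein binds as ferritin, had 9.72, 9.80, 9.71 and 9.49 in mice 1 to 4, and the transferrin receptor gene Tfrc had 7.96, 7.89, 8.03 and 8.18. Fth1 by this probe set was lowest in mouse 4, as Ncoa4 was, while Tfrc was highest there, and a second Fth1 probe set, 161913_r_at, was lowest in mouse 2.

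For Ndrg1, 18 of 19 genes of its family and of hypoxia were measured, 5 above the limit, 0 called and 2 at an unadjusted p under 0.05 (limma), with a median SD of 0.15. Its relatives Ndrg2 and Ndrg3 had means of 5.14 ± 0.04 and 3.16 ± 0.07 (SD, n = 4 each), under the limit. Hif1a, the hypoxia factor gene, had 8.19, 8.05, 8.62 and 8.24 in the 4 mice, topped by mouse 3 as Ndrg1 was but lowest in mouse 2, with an SD of 0.25 (adjusted p = 0.936, limma). In the lists around the 2 signalling members that were not analysed, the SMAD and NEDD4 list had 6 of 19 measured genes above the limit and the list of calmodulin-dependent and AMP-activated kinases 1 of 8, with 0 called in either, 1 and 0 at an unadjusted p under 0.05 (limma), and median SDs of 0.13 and 0.14. Smad4 had a mean of 7.25, Nedd4 7.74 and the AMPK kinase gene Stk11 6.74, all above the limit, and Smad2 at 5.44, Smad3 at 3.23 and Camk4 at 3.38 were not.

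A wider list of 97 genes known as androgen-induced, mostly in human prostate cells, had 61 measured, of which 26 (42.6%) were above the background limit, against 28.3% of all genes. Of the 61, 0 were called and 9 (14.8%) had an unadjusted p under 0.05 (limma), against 5.44% of all probe sets. Its median SD was 0.13, against 0.11 over all probe sets. Its 28 genes over 6.15, the mean of the 4 limits, deviated by 0.00, 0.08, 0.00 and -0.07 in mice 1 to 4, and 6 of them (21.4%) had both mouse 3 highest and mouse 4 lowest, against 7.39% of all probe sets. Ndrg1, a member in which this order was noticed, was among the 6. The 14.8%, the 21.4% and the median SD of 0.13 take each gene by its brightest probe set. The 5.44%, 7.39% and 0.11 set beside them cover all probe sets, dim ones included. These shares are descriptions and were not tested. All 61 measured genes deviated by -0.02, 0.02, 0.02 and -0.02. The list includes 3 of the members. Pbsn, the androgen-dependent probasin gene of the prostate, stood on the prostate list and not on this one, and was high in mouse 1, where Fkbp4 and Fkbp5 were lowest. It had 6.57 in mouse 1 against 3.02, 3.18 and 3.47 (adjusted p = 0.0015, limma).

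Genes whose 4 values most resembled those of a member were sought for the 3 member probe sets above the limit, by the root mean square difference of values centred on each probe set's mean, among probe sets that also exceeded the limit and had an SD of at least 0.75 times the member's. For Fkbp4 by 92808_f_at they were Oat, Cops9 and Ahcyl1, at 0.0056 to 0.013, and for 92809_r_at Mypop, Kmt5a and Banf1, at 0.0084 to 0.011. For Fkbp5 they were Man2a1, H13 and Psmb1, at 0.0052 to 0.010. The likeness is over 4 mice and small spreads, and 418, 683 and 504 probe sets lay within 0.1 of Fkbp4 92808_f_at, Fkbp4 92809_r_at and Fkbp5, so it singles out no gene.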

How the data were processed

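The authors deposited a single log2 value for each probe set, computed with RMA per the submitters' processing notes. Neither the RMA version nor the set of arrays normalized jointly is given by the sources available. A log2 scale was inferred from the values, between 1.47 and 13.18. RMA compresses differences between dim values and hides a shift of all genes on an array.

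The table held 12488 probe sets, of which 66 controls were kept out of tests. Genes came from the platform annotation, updated by gene ID to RefSeq symbols (GRCm38.p6): 10833 probe sets had 1 gene, 396 several and 1193 none. Mice were numbered 1 to 4 in series order, which only names them. The labels do not give litter, cage or batch, so p-values measure only the spread between these 4 samples.

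A call of variable means that the 4 arrays of a probe set varied more than the prior variance of limma (robust, mean signal as trend, 8.06 prior degrees of freedom) by an upper-tail F test with Benjamini-Hochberg adjustment over 12422 probe sets at 0.05. The test was tested on simulated data with known changes and missed most of the smaller ones. In lists a gene counted as above the limit or called by any of its probe sets, and its value and unadjusted p come from its brightest. Named genes were all members, a fixed set of 31 partner genes (23 measured), called genes of pathway lists, the nearest genes by likeness, and Pbsn. The other named genes, with the luminal and macrophage markers, B lineage genes and Svs genes, come from the fixed lists. Of these, Ddit4, Mt1, Mt2, Zbtb16 and Cebpd were chosen after their values were seen, for an unadjusted p under 0.05 (limma). Genes of some other lists with such a p, as in the coregulator and hypoxia lists, were not named. The members and the 22 gene lists were chosen with earlier results of these data known. Software was R 4.3.3, limma 3.58.1, Python 3.11.15 and matplotlib 3.10.9.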

Additional observations from a re-analysis of the deposited data

How the results depend on the processing

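Under 11 alternatives for scaling, mice included, prior fit, filter and combining probe sets, 0 member probe sets were called by limma, the lowest adjusted p was 0.858, and at most 1 member probe set had an unadjusted p under 0.05. Their SDs ran from 0.04 to 0.25. The count over all probe sets, 35, fell to 15 with a non-robust prior, 17 with the mean of a gene's probe sets, 1 above the median signal and 0 above the mean background limit (170 at an unadjusted p under 0.05), and ran from 17 to 44 with 1 mouse left out (17 without mouse 4, 23 without mouse 2). The filters tested fewer probe sets, and the cause of the other changes was not tested.

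The 3 member probe sets above the background limit became 7 with the 75th percentile or with each array's median as limit (45.1% and 47% of all probe sets). They were 5 when 1 array sufficed (28.9% of all) and stayed at 3 with the 95th percentile (16.6% of all). Without mouse 4 they were 4 (24% of all), Ndrg1 160464_s_at being added. With any other mouse left out they were 3 (23.3% to 23.6% of all). The 7 member probe sets highest in mouse 3 were 8 after a second quantile normalization, and the 5 lowest in mouse 4 were 5 under both rescalings, an alternative chosen after seeing the data. No paired analysis was possible because the samples form 1 group. The 4 arrays limit the precision, and Hsd17b4, Ncoa4 and Ndrg1 lie too near background for small differences to be sized.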
